A study of Mus musculus with 2 samples.

Results

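Macrophages that carried transcripts of both Cx3cr1, the receptor for the chemokine fractalkine, and Vcam1, a surface adhesion protein, were described in dissociated RENCA tumours. RENCA is a mouse kidney carcinoma line that was grown orthotopically in BALB/c mice. Members were chosen by their own transcripts: at least 3000 UMIs (unique molecules counted), at most 20% mitochondrial UMIs, at least 1 UMI of Csf1r, at least 3 of Vcam1, at least 2 of Cx3cr1, at most 3 of Lyve1 and Cd163 together and at most 3 of Mki67 and Top2a together. This gave 459 members among 19451 barcodes, 266 of them in the library labelled SMYD3 knockdown and 193 in the library labelled WT. The remaining 11062 cells with at least 3000 UMIs and a Csf1r UMI (5413 in the knockdown-labelled library and 5649 in the WT-labelled library) served for comparison and are called the other Csf1r cells.

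The tumours of the first library came from RENCA cells in which the histone and protein methyltransferase gene Smyd3 had been knocked down, and those of the second from control RENCA cells, labelled WT. Both were grown in BALB/c mice, so the members are host cells and both groups share the same graft line and strain. The sources used here do not give how the knockdown was made, how many mice were used, their age, any pooling or the time after grafting. The series is described as one of immune cells sorted by the leukocyte antigen CD45, whereas the records of the samples give an epithelial cell type and no sort. With 1 library per label no test was possible, and every interval printed is at 95% and covers counting error only.

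Tissue macrophages depend on the growth factor receptor encoded by Csf1r and differ by organ and by origin. Cx3cr1 marks circulating patrolling monocytes, microglia and several macrophage populations, the kidney's own among them, and tethers cells to fractalkine, which is made by Cx3cl1. Vcam1 binds the integrin of Itga4 and Itgb1 and in macrophages is known from splenic red pulp and from tumours. Csf1r signalling, TGF-beta signalling and the ETS transcription factor PU.1, the product of Spi1, take part in the identity of microglia and other macrophages.

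The knockdown-labelled library held 95803321 UMIs in 10186 barcodes and the WT-labelled library 91523767 UMIs in 9265 barcodes, with 22 barcode sequences present in both. Members had a median of 12901 UMIs and 3545.5 genes per cell in the knockdown-labelled library, against 12099 UMIs and 3459 genes in the WT-labelled library. The median mitochondrial share was 1.35% in both. Among the other Csf1r cells the median was 13171 UMIs in the knockdown-labelled library and 12429 in the WT-labelled library. Members were therefore close in depth to the cells they are compared with. High doublet scores were given to 18 members (6.77%) of the knockdown-labelled library and 17 (8.81%) of the WT-labelled library, and 2 and 0 members had a barcode sequence shared by the libraries.

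The label was checked against macrophage markers that the rule did not use. In members, the macrophage surface protein gene Adgre1 (F4/80) had a UMI in 92.9% of cells in the knockdown-labelled library and 93.3% in the WT-labelled library, against 68.8% and 69.2% of the other Csf1r cells in the same libraries. Thinned to 3000 UMIs per cell, these shares were 55.3% and 60.6% of members, against 34.3% and 36.1% of the other Csf1r cells. Free RNA in the droplets can give a cell a UMI of a gene it does not express, so T cells (no Csf1r UMI and at least 3 of Cd3e, Cd3d, Cd3g and Trac together, with medians of 3630.5 and 4071.5 UMIs) were read in the same way. After thinning, an Adgre1 UMI was found in 4.55% of 44 T cells of the knockdown-labelled library and 0% of 54 T cells of the WT-labelled library. For Vcam1 the shares were 4.55% and 1.85% of T cells, for Cx3cr1 6.82% and 5.56%, and for Tmem176b 15.9% and 16.7%. Before thinning these T cells held fewer UMIs than members and the other Csf1r cells, and thinning removed a smaller part of them. Their shares are therefore no exact measure of free RNA in the other groups. Lyz2, Aif1, Fcgr1 and Mertk were also higher in members in both libraries. Of 10 general macrophage genes, 7 were higher and 3 lower in members in both libraries, Csf1r of the rule being 1 of the 7. Of all 7888 genes measured in both libraries, 2639 were higher and 3449 lower in members in both. The 3 lower genes were Itgam, Cd68 and Cd14. Itgam was at least 1.5-fold lower, with ratios of members over other cells of 0.610 in the knockdown-labelled library and 0.636 in the WT-labelled library. Cd68 had ratios of 0.919 and 0.848, and Cd14 of 0.885 and 0.852. Fcrls, Cd72 and Tmem176b, given as markers of these cells beside the genes of the rule, were at least 1.5-fold higher in members in both libraries.

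Members made up 4.68% of Csf1r cells with at least 3000 UMIs in the knockdown-labelled library (266 of 5679, exact interval 4.15 to 5.27%) and 3.30% in the WT-labelled library (193 of 5842, 2.86 to 3.79%). The difference was 1.38 percentage points (0.666 to 2.10). The share of Csf1r cells with at least 3 Vcam1 UMIs was 18.2% in the knockdown-labelled library and 19.1% in the WT-labelled library, a difference of -0.948 points with an interval of -2.37 to 0.475. After thinning, a Vcam1 UMI was found in 17.01% of Csf1r cells of the knockdown-labelled library and 19.4% of those of the WT-labelled library, a difference of -2.42 points (-3.83 to -1.01). By contrast, at least 2 Cx3cr1 UMIs were found in 21.01% of Csf1r cells of the knockdown-labelled library and 15.3% of those of the WT-labelled library (difference 5.72 points, 4.32 to 7.13). Among cells that met every other criterion, more than 3 UMIs of Lyve1 and Cd163 removed 18.2% in the knockdown-labelled library and 29.3% in the WT-labelled library. Of the rule's own criteria, the Cx3cr1 minimum was met by more cells in the knockdown-labelled library, and the Lyve1 and Cd163 maximum removed fewer. The Vcam1 minimum was not met by more cells there. These values only split the share by the criteria that chose the members, and why it was higher was not tested.

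With every cell thinned to 3000 UMIs, the minimums were set to 2 Vcam1 UMIs and 1 Cx3cr1 UMI. The maximum was set to 1 for Lyve1 with Cd163 and to 1 for Mki67 with Top2a. Members were then 3.395% of Csf1r cells in the knockdown-labelled library (119 of 3505) and 2.46% in the WT-labelled library (93 of 3783). The difference was 0.937 points (0.163 to 1.73). These shares have no replicate, and the spread between tumours is not known. The rule's edges were populated. Exactly 3 Vcam1 UMIs were found in 35 members of the knockdown-labelled library and 18 of the WT-labelled library, while 28 and 21 cells missed the rule with 2. Exactly 2 Cx3cr1 UMIs were found in 30 and 40 members, while 47 and 37 cells missed it with 1. Of the 459 members, 342 lay clear of both minimums.

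Cx3cr1 itself lies on chromosome 9 (119901616 to 120069879, minus strand, mm10) and Vcam1 on chromosome 3 (116109949 to 116129688, minus strand). Members held 2 to 29 Cx3cr1 UMIs, with a median of 6, in the knockdown-labelled library and 2 to 25, with a median of 5, in the WT-labelled library. Their Vcam1 UMIs ran between 3 and 50 with a median of 8 in the knockdown-labelled library and between 3 and 59 with a median of 9 in the WT-labelled library. In the other Csf1r cells the median of each gene was 0 in both libraries. These values follow from the rule. No Cx3cl1 UMI was found in the members of either library, and Cx3cl1 stood at 0.271 CPM (UMIs of a gene per 1000000 summed UMIs) in the other Csf1r cells of the knockdown-labelled library and 0.470 CPM in those of the WT-labelled library. The integrin genes whose product binds Vcam1 were present in members, with Itga4 at 54.0 CPM in the knockdown-labelled library and 66.6 CPM in the WT-labelled library, and Itgb1 at 259 and 321 CPM. Adam10 and Adam17, proteases that shed fractalkine and VCAM1 from cell surfaces, were measured and lay within 1.5-fold of the other Csf1r cells in both libraries.

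The neighbouring genes Tmem176a and Tmem176b on chromosome 6 (Tmem176a at 48840919 to 48847071 on the plus strand, Tmem176b at 48833818 to 48841496 on the minus strand, mm10) encode related multi-pass membrane proteins of intracellular vesicles and were among the 15 genes named as highest in members. RefSeq start sites at 48841483 (Tmem176a) and 48841374 (Tmem176b) leave 108 bases between them and point away from each other. They were taken as the lowest Tmem176a start site and the nearest Tmem176b start site below it. A gap between them was thus set by this choice. The GENCODE positions given above overlap, so it is only by these chosen start sites that both genes share a promoter region. Its sequence is shown around a match to AGGAAGT, the core sequence bound by PU.1 and other ETS factors, beside the matches in the promoter windows of Fcrls and Cd72. Sequences are from RefSeq windows of 250 bases before to 50 bases after a start site on GRCm38.p6 (mm10), read 5′ to 3′ on the strand of the named gene. Capitals mark the motif, which in Fcrls and Cd72 lies on the opposite strand and reads ACTTCCT.
Tmem176a, chr6:48841426-48841454, plus strand: agctgcctgccAGGAAGTgttgaggtctg
Fcrls, chr3:87263582-87263610, minus strand: acaactttgccACTTCCTttttttcctat
Cd72, chr4:43454630-43454714, minus strand: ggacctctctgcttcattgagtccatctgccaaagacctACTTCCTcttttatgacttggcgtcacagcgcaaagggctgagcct
The motif began 46 bases before the RefSeq start site in Tmem176a, 75 in Fcrls and 49 in Cd72. In GENCODE the Tmem176a and Fcrls stretches each overlap 1 annotated exon, and the Cd72 stretch overlaps 0. On either strand the motif was present in 9.35% of all 32851 windows. Of the 15 genes named as highest in members, 11 had a window and 5 of these had the motif in at least 1 window, against 10.7% of all genes with a window. Cx3cr1 had a window without it, and Vcam1 had none in the table used. The genes compared were chosen by their levels, and a match describes these letters only, not binding.

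Levels in members and in the other Csf1r cells were compared within each library, as a description, because the rule itself separated these cells. A gene was counted when log2(CPM + 5) differed by at least log2 of 1.5 in the same direction in both libraries. Of 7888 genes measured in members or other cells of both libraries, 238 (3.02%) were higher and 524 (6.64%) lower in members. Tmem176b stood at 421 CPM in members of the knockdown-labelled library and 310 CPM in those of the WT-labelled library, against 73.1 and 66.0 CPM in the other Csf1r cells. Tmem176a stood at 303 and 205 CPM in members, against 49.95 and 47.6 CPM. The ratio for Tmem176b was 5.76 (5.44 to 6.09) in the knockdown-labelled library and 4.70 (4.35 to 5.07) in the WT-labelled library. Thinned to 3000 UMIs per cell, it was found in 63.5% and 56.0% of members, against 15.4% and 15.1% of the other Csf1r cells, shares near those of T cells.

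Tmem176a and Tmem176b belong with the Ms4a genes, a related family of membrane proteins. All 8 of the measured members of the Ms4a and Tmem176 list were higher in both libraries, as were 2639 of all 7888 genes. At least 1.5-fold higher were 6, Tmem176a and Tmem176b among them, against 3.02% of all genes. Ms4a7, a marker of mature macrophages, stood at 346 CPM in members of the knockdown-labelled library and 328 CPM in those of the WT-labelled library, against 135 and 146 CPM in the other cells. Ms4a4c stood at 203 and 142 CPM, against 79.5 and 63.7 CPM. The other genes farthest above the other Csf1r cells encode receptors, enzymes and matrix proteins. Aif1, the calcium-binding protein Iba1 used to stain macrophages and microglia, stood at 617 and 501 CPM in members, against 172 and 132 CPM. Acp5, the acid phosphatase known from osteoclasts and tissue macrophages, stood at 188 and 166 CPM, against 39.6 and 39.2 CPM. Spon1, a secreted matrix protein, stood at 145 and 131 CPM, against 31.3 and 29.1 CPM.

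**Figure D1:**
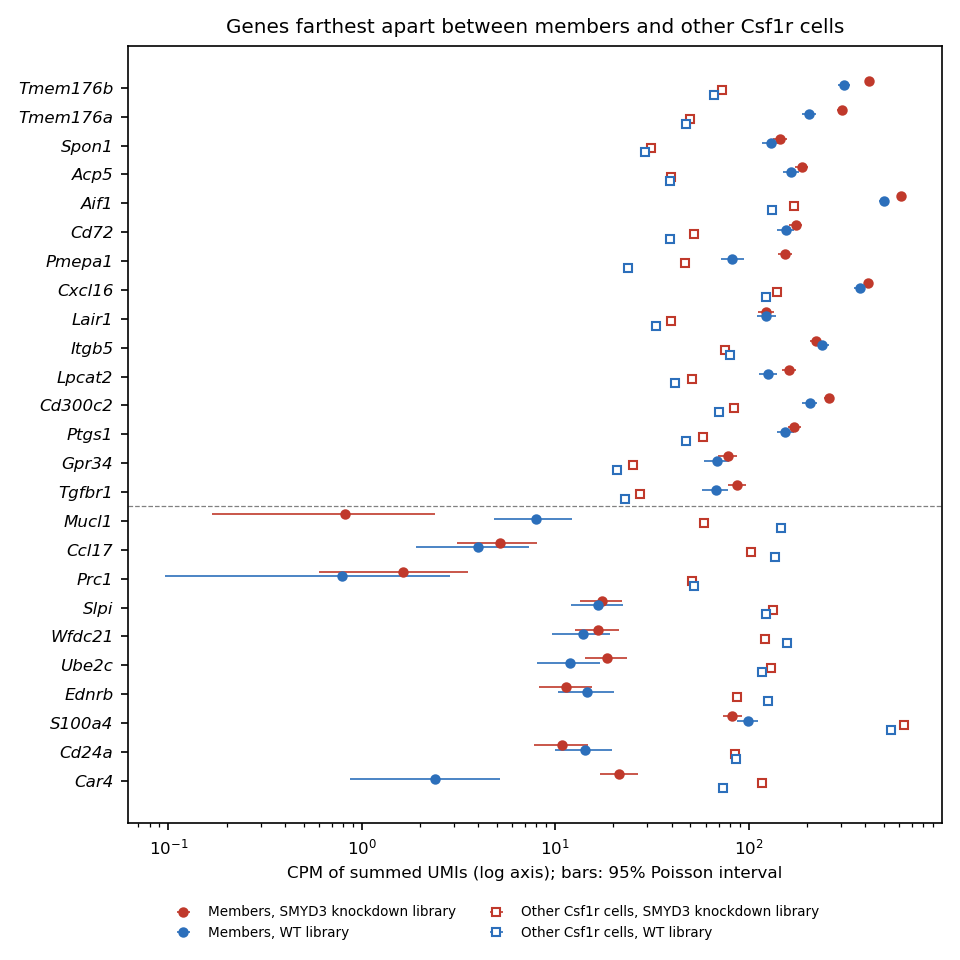
Summed UMIs as CPM (log axis, 95% Poisson bars) of the 15 genes named as highest and the 10 named as lowest in members, with members as filled circles and other Csf1r cells as open squares, the SMYD3 knockdown library in red and the WT library in blue. Tmem176b lies at 421 and 310 CPM in members and at 73.1 and 66.0 CPM in the other cells, and in every gene above the dashed line both filled circles lie to the right of both squares.

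Immune receptors formed a group among these genes. Of 13 inhibitory lectin and Siglec receptors measured, 5 were at least 1.5-fold higher in members in both libraries and 1 was lower by that much. By any amount, 10 were higher and 3 lower in both libraries. Cd72, an inhibitory lectin that binds a semaphorin, stood at 175 CPM in members of the knockdown-labelled library and 156 CPM in those of the WT-labelled library, against 51.9 and 39.02 CPM in the other cells. Siglec1, a sialic acid receptor, stood at 104.8 and 79.3 CPM, against 52.4 and 46.5 CPM. Clec10a, a galactose-binding lectin, was the gene at least 1.5-fold lower, at 129 and 144 CPM in members, against 257 and 345 CPM. Lair1, an inhibitory receptor for collagen, stood at 123 CPM in members of both libraries, against 39.6 and 33.3 CPM. Cd300c2, another paired immune receptor, stood at 260 and 207 CPM, against 84.3 and 70.4 CPM. Of the 5 Fc receptor genes, Fcgr1 and Fcgr4 were at least 1.5-fold higher in both libraries.

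Genes best known from mouse microglia were higher in members. All 12 measured genes of the microglia-associated list were higher in both libraries, as were 2639 of all 7888 genes, and 7 were at least 1.5-fold higher, with a list median of 1.08 (log2, members minus others) in the knockdown-labelled library and 0.89 in the WT-labelled library, against -0.04 and -0.03 over all genes. Olfml3, a secreted protein, had the highest ratios of the list and stood at 38.3 CPM in members of the knockdown-labelled library and 14.7 CPM in those of the WT-labelled library, against 5.19 and 2.30 CPM in the other cells. Fcrls, a receptor of the Fc receptor-like family, stood at 314 CPM in members of the knockdown-labelled library and 290 CPM in those of the WT-labelled library, against 121 and 124 CPM in the other cells. Gpr34, a lysophospholipid receptor, stood at 77.9 and 68.6 CPM, against 25.3 and 20.96 CPM. P2ry13, an ADP receptor, stood at 41.0 and 32.9 CPM, against 11.2 and 8.95 CPM. Tmem119 stood at 41.3 and 28.2 CPM, against 12.01 and 7.28 CPM. The defining genes Sall1 and Slc2a5 had 0 UMIs in members of both libraries and Siglech had 3 and 4, so the likeness does not cover the whole list. Sparc, also under the minimum for this comparison, stood at 2.72 and 30.1 CPM in members, against 6.86 and 9.78 CPM. P2ry12 was detected at 39.9 and 29.0 CPM, against 21.6 and 20.1 CPM.

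TGF-beta pathway genes included several of those farthest apart. Of 11 measured, 4 were at least 1.5-fold higher in members in both libraries and none was lower by that much. The type I receptor gene Tgfbr1 stood at 87.4 CPM in members of the knockdown-labelled library and 67.4 CPM in those of the WT-labelled library, against 27.5 and 23.1 CPM in the other cells. Tgfbr2, the type II receptor, stood at 242 and 231 CPM, against 145 and 148 CPM. Itgav, an integrin subunit that takes part in activating latent TGF-beta, stood at 76.6 and 61.1 CPM, against 36.5 and 33.5 CPM, and its partner Itgb5 stood at 222 and 240 CPM, against 75.3 and 80.0 CPM. Pmepa1, a TGF-beta target that dampens the pathway, stood at 155 and 82.5 CPM, against 47.0 and 23.7 CPM. The ligand Tgfb1 differed little, at 196 and 191 CPM in members and 177 and 164 CPM in the other cells.

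Of 12 complement genes measured, 5 were at least 1.5-fold higher in members in both libraries and 2 lower by that much. C1qa, C1qb and C1qc, which together make the complement component C1q, stood at 7929, 4158 and 5592 CPM in members of the knockdown-labelled library and 7356, 3664 and 5225 CPM in those of the WT-labelled library. The other Csf1r cells had 3769, 1973 and 2498 CPM in the knockdown-labelled library and 3682, 1788 and 2392 CPM in the WT-labelled library. Apoe, a lipid carrier, stood at 25572 and 22852 CPM in members, against 8950 and 10268 CPM. Of its list of 13 lipid and efflux genes, 2 were at least 1.5-fold higher in both libraries and 1 lower by that much. Of 13 genes known from kidney-resident macrophages, 9 were at least 1.5-fold higher in members in both libraries and none was lower by that much. Of 12 genes of the uptake of dying cells, 5 were at least 1.5-fold higher and none lower by that much, while 4 were lower by any amount in both libraries. Axl, a receptor for dying cells, stood at 179 and 148 CPM, against 63.3 and 56.5 CPM. In the macrophage transcription factor list, 3 of 24 were at least 1.5-fold higher in both libraries and 2 lower by that much. The higher ones included Mef2c (216 and 284 CPM, against 127 and 146 CPM) and Irf8 (308 and 314 CPM, against 191 and 203 CPM), both known to act in microglia. Id2 and Bhlhe40 were the lower ones, Id2 at 258 and 283 CPM, against 601 and 614 CPM. Spi1 was within 1.5-fold.

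Chemokines were not all on the same side: of 11 CC chemokine genes measured, 1 was at least 1.5-fold higher in members in both libraries and 4 were lower. Ccl12, a ligand of CCR2, stood at 5791 CPM in members of the knockdown-labelled library and 4229 CPM in those of the WT-labelled library, against 3401 and 2381 CPM in the other cells. Cxcl16, a membrane-bound chemokine, stood at 414 and 375 CPM, against 140 and 123 CPM, and the interferon-induced Cxcl10 at 225 and 196 CPM, against 87.4 and 91.6 CPM. Summed Ccl8 was lower, at 826 and 1078 CPM, against 1391 and 1747 CPM, but the median cell was not. The median member held 3 and 5 Ccl8 UMIs, against 1 and 3 in the other cells, of which the highest held 1093 and 1128 UMIs, against 178 and 511 in the highest members. Ccl17, a ligand of CCR4, was among the lowest named genes, at 5.16 and 3.97 CPM, against 103 and 138 CPM.

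Classical monocyte genes were lower in members. All 10 measured genes of that list were at least 1.5-fold lower in both libraries. The chemokine receptor gene Ccr2 stood at 127 CPM in members of the knockdown-labelled library and 115 CPM in those of the WT-labelled library, against 288 and 290 CPM in the other cells. Fn1, fibronectin, stood at 642 and 552 CPM, against 1929 and 2005 CPM. S100a4 stood at 82.5 and 98.8 CPM, against 638 and 544 CPM. Of 14 genes of the Arg1, Spp1 and hypoxia list, 13 were at least 1.5-fold lower, with Arg1 (arginase) at 245 and 165 CPM, against 877 and 574 CPM. Of 12 matrix and Gpnmb genes, 10 were lower by that much and 1 higher, the membrane protease gene Mmp14, at 138 and 110 CPM, against 70.5 and 57.1 CPM. The 13 measured cell cycle genes were lower, as the limit on Mki67 and Top2a favours. Lyve1 and Cd163 were limited by the rule. Of the 10 measured genes of the Lyve1 tissue macrophage list, which includes them, 7 were lower in both libraries, 3 of these by at least 1.5-fold, and 3 were higher. Folr2, a folate receptor, stood at 180 and 180 CPM in members, against 240 and 252 CPM, and Mrc1, another tissue macrophage gene, stood at 1585 and 1593 CPM in members, against 1520 and 1568 CPM.

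**Figure D2:**
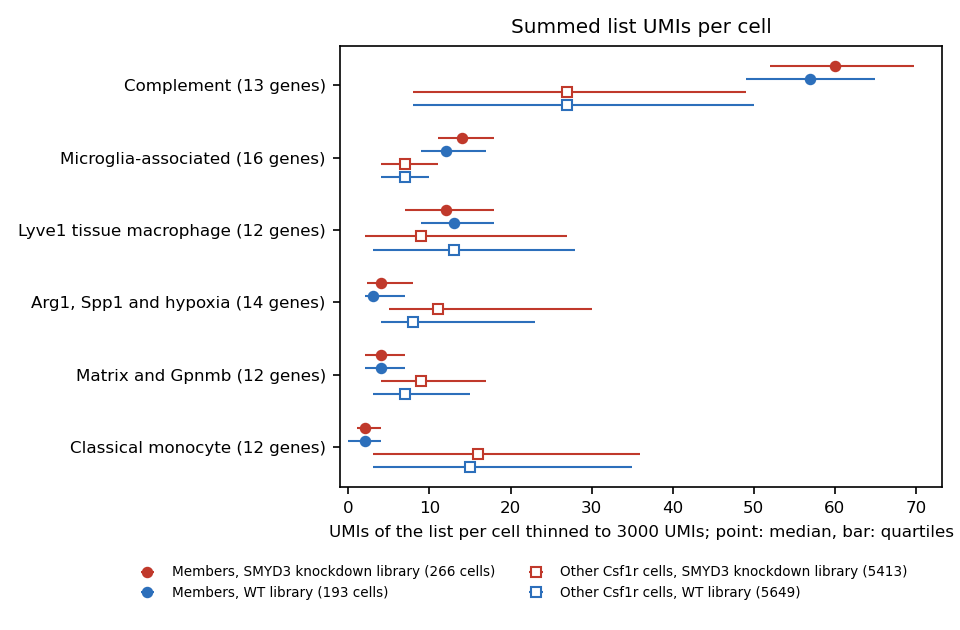
UMIs of 6 gene lists per cell after thinning to 3000 UMIs (median and quartiles), for members (filled circles) and other Csf1r cells (open squares), in the SMYD3 knockdown library (red) and the WT library (blue). Members had medians of 60 and 57 complement UMIs, against 27 and 27, and of 2 and 2 classical monocyte UMIs, against 16 and 15, with narrower quartiles than the other cells in both lists.

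In some lists the middle 50% of members was narrower than that of the other Csf1r cells, in others wider. After thinning to 3000 UMIs, the middle 50% of members held 52 to 69.75 complement UMIs in the knockdown-labelled library and 49 to 65 in the WT-labelled library, while the middle 50% of the other Csf1r cells held 8 to 49 and 8 to 50. Classical monocyte UMIs had quartiles of 1 and 4 in members of the knockdown-labelled library and 0 and 4 in those of the WT-labelled library, against 3 and 36 and 3 and 35. For MHC class II genes the middle 50% was wider in members, 5 to 17.75 UMIs in the knockdown-labelled library and 4 to 21 in the WT-labelled library, against 3 to 14 and 3 to 15, and likewise for dissociation stress genes, 23.25 to 66 and 29 to 75, against 23 to 60 and 30 to 70. Interferon response genes were at 1 to 5 and 1 to 4 in members, against 0 to 3 and 0 to 2. The 95th percentiles of MHC class II UMIs were 74.5 and 93.4 in members, against 85 and 77. They were thus higher in members in the WT-labelled library only. The other Csf1r cells include several kinds of cell, and their range covers that mixture.

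Members differed among themselves in MHC class II genes and chemokines. The 15 genes with the highest variance relative to their mean in both libraries included 5 MHC class II genes (Cd74, H2-Aa, H2-Ea, H2-Eb1 and H2-Ab1), 5 chemokines (Ccl12, Ccl8, Ccl4, Cxcl2 and Cxcl10), Apoe, the serum amyloid gene Saa3, Lyz2, Spp1 and the noncoding RNA Malat1. H2-Aa had a variance 13.9 times its mean in the knockdown-labelled library and 19.1 times its mean in the WT-labelled library, where the median over 2197 genes was 1.08 and 1.09. The UMIs of Cd74 and of H2-Aa, H2-Ab1 and H2-Eb1, whose products present peptides to CD4 T cells, were summed. This sum had a median of 2 in members of the knockdown-labelled library, with a range of 0 to 112. In members of the WT-labelled library the median was 3, with a range of 0 to 165. At least 20 UMIs of the sum, a limit chosen after the values were seen, were held by 51 of 266 members (19.2%, 14.6 to 24.4%) and 44 of 193 (22.8%, 17.1 to 29.4%). Of the other Csf1r cells, 20.0% and 20.8% held as many. The shares in members and in the other Csf1r cells differed by less than the members' intervals. Ccl12 had a UMI in 95.9% and 95.3% of thinned members, against 71.6% and 69.2% of the other cells and 56.8% and 55.6% of T cells. Cxcl10 had a UMI in 15.8% and 18.1% of members, below the 22.7% and 33.3% of T cells, so its share of cells is not read as expression. T cells were shallower before thinning, so these shares are not like for like, and how much Cxcl10 in members was free RNA was not tested. The highest members held 29 and 17 Cxcl10 UMIs.

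**Figure D3:**
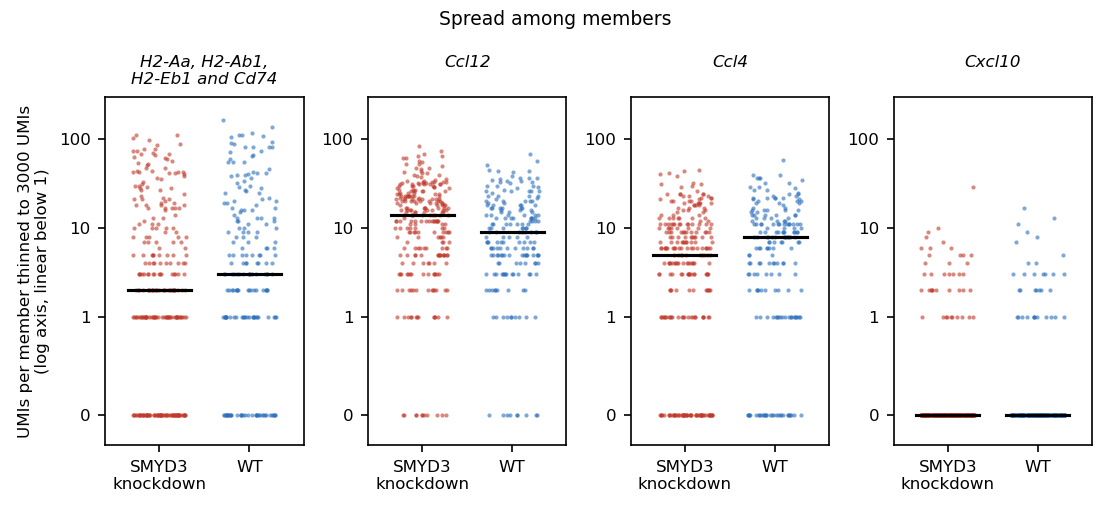
UMIs per member after thinning to 3000 UMIs for 4 summed MHC class II genes, Ccl12, Ccl4 and Cxcl10 (log axis, linear below 1; 1 point per cell, line at the median), in 266 members of the SMYD3 knockdown library and 193 of the WT library. The MHC class II sum runs from 0 to 112 and from 0 to 165 with medians of 2 and 3, and Ccl12 has medians of 14 and 9.

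The knockdown-labelled and WT-labelled libraries were then compared within members, which asks whether these host macrophages differ with Smyd3 in the grafted tumour cells. Of 7925 genes measured in members, 102 (1.29%) were at least 1.5-fold higher and 201 (2.54%) at least 1.5-fold lower in the knockdown-labelled library on the log2(CPM + 5) scale. In the other Csf1r cells, with far more UMIs behind each value, 26 of 7956 genes (0.327%) were higher and 58 (0.729%) lower by that much. Secretory genes of the pancreas, described below as a trait of the whole library, were left in these counts. They made up 10 of the 102 higher genes in members and 11 of the 26 in the other Csf1r cells. The median over all measured genes was -0.02 in both. Of the 303 genes apart in members, 57 were also at least 1.5-fold apart the same way in the other Csf1r cells and 261 had the same sign there. The share of same-sign genes over all measured genes was not taken, so the 261 have no background to be set against. A gene 1.5-fold apart here is apart between a pair of libraries, with no replicate to set it against.

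Cholesterol synthesis genes were higher in the knockdown-labelled library. Of 17 measured genes of the sterol and fatty acid synthesis list, which are targets of the SREBP transcription factors, 16 were higher in members of the knockdown-labelled library and 7 were at least 1.5-fold higher. None was at least 1.5-fold lower. Of all 7925 measured genes, 45.98% were higher by any amount. The list median was 0.51 (log2), against 0.24 in the other Csf1r cells, where 0 of 18 genes were 1.5-fold apart. Idi1, an isoprenoid isomerase, stood at 67.1 CPM (247 UMIs) in members of the knockdown-labelled library and 34.5 CPM (87 UMIs) in those of the WT-labelled library, a ratio of 1.94 (1.52 to 2.51). Fasn, the fatty acid synthase, stood at 27.4 and 14.3 CPM (1.92, 1.30 to 2.89).

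Sqle, Cyp51 and Fdps, enzymes of sterol and isoprenoid synthesis, were also among the 7, with ratios of 1.88, 1.84 and 1.69. In the other Csf1r cells the ratios for Idi1, Fasn, Sqle, Cyp51 and Fdps were 1.496, 1.11, 1.25, 1.21 and 1.55. Fdps thus passed 1.5 there as a ratio of CPM, though not on the log2(CPM + 5) scale. Whether the ratios differ between members and other cells was not tested. Pmvk, a mevalonate pathway kinase outside the list, was among the 10 highest genes by the naming rule, at 66.3 CPM in members of the knockdown-labelled library and 37.7 CPM in those of the WT-labelled library. Hmgcs1, at the start of the pathway, had a smaller ratio of 1.23 (1.04 to 1.45), and Scd2, a fatty acid desaturase, a ratio of 0.901 (0.743 to 1.09). Of 13 genes of the lipid and efflux list, which holds targets of the LXR receptors, 6 were higher and 7 lower, 1 and 2 of them by at least 1.5-fold. The list median was -0.23, and 0.0065 without the 5 highest cells of each gene. Apoe had a ratio of 1.12 (1.11 to 1.13). Among the lower genes, the cholesterol exporter gene Abca1 stood at 119 and 182 CPM (ratio 0.653, 0.571 to 0.746), Abcg1 at 66.2 and 87.3 CPM (0.759, 0.630 to 0.915) and Mylip at 43.2 and 69.8 CPM (0.618, 0.496 to 0.771). In the other Csf1r cells Abca1, Abcg1 and Mylip had ratios of 0.704, 0.854 and 0.725.

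The sterol regulatory element core TCACCCCAC, the site bound by SREBP proteins, was looked for on both strands in the same windows. It was present in 0.551% of all windows and in 1 of the 11 genes of the list that had a window, Hmgcs1, where it began 137 bases before the start site. The stretch around it is shown with the motif in capitals.
Hmgcs1, chr13:119690175-119690261, plus strand: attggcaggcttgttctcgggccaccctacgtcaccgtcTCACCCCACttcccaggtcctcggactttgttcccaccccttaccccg

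**Figure D4:**
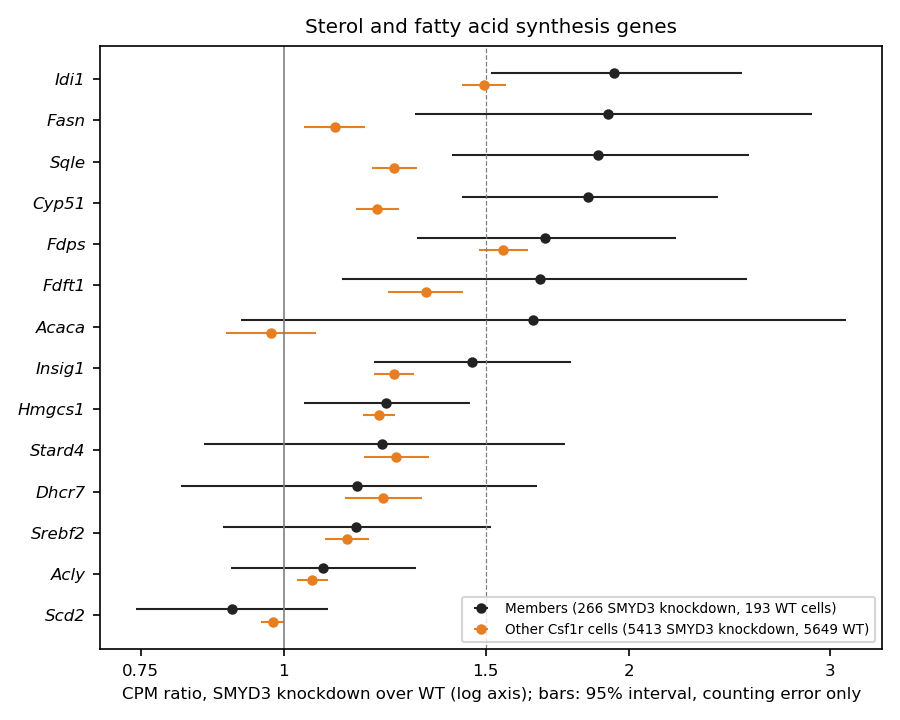
CPM ratio of the SMYD3 knockdown library over the WT library (log axis, 95% intervals, counting error only) for 14 measured sterol and fatty acid synthesis genes in members (black) and other Csf1r cells (orange). In members the points run from 1.94 for Idi1 to 0.901 for Scd2, and 13 of 14 lie above 1.

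Smyd3 and the genes of SREBP1 and CD47, which the title of the series names, gave the following values in members. Smyd3 was sparse, with 25 UMIs (6.79 CPM) in members of the knockdown-labelled library and 14 UMIs (5.55 CPM) in those of the WT-labelled library, a ratio of 1.22 (0.611 to 2.54). Members are host cells, so this value does not check the knockdown. Srebf1, which encodes SREBP1, stood at 21.4 and 15.5 CPM (1.39, 0.933 to 2.09). Cd47, the surface protein that restrains phagocytosis, stood at 187 and 189 CPM (0.987, 0.877 to 1.11), and Sirpa, its receptor on macrophages, at 345 and 348 CPM (0.992, 0.909 to 1.08). Cd47 was lower in members than in the other Csf1r cells, which had 306 and 288 CPM. For Cd47 and Sirpa no difference between the libraries was detectable at this depth.

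Among the highest genes outside the sterol pathway, Pmepa1 had a ratio of 1.88 in members and 1.98 in the other Csf1r cells, so the libraries differed in both. Ly6e, an interferon-inducible surface protein, stood at 86.1 CPM in members of the knockdown-labelled library and 47.2 CPM in those of the WT-labelled library (1.82, 1.47 to 2.27), with a ratio of 1.12 in the other cells. Ldhb, a lactate dehydrogenase subunit, stood at 56.7 and 30.6 CPM, and the tubulin gene Tuba1a at 113 and 65.5 CPM. Spp1, osteopontin, stood at 1457 and 903 CPM in members, and at 3636 and 2568 CPM in the other cells. Olfml3, described above, stood at 38.3 CPM (141 UMIs) and 14.7 CPM (37 UMIs), a ratio of 2.61 (1.80 to 3.85), and had a ratio of 2.26 in the other Csf1r cells. The marker genes differed less: Tmem176b had a ratio of 1.36 (1.25 to 1.48), Tmem176a of 1.47 (1.33 to 1.64), Fcrls of 1.08 (0.986 to 1.19) and Cd72 of 1.12 (0.989 to 1.28).

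Chil3, a chitinase-like protein, had a ratio of 2.10 (1.62 to 2.74) that rested on few cells. It stood at 64.9 CPM (239 UMIs) in members of the knockdown-labelled library and 30.9 CPM (78 UMIs) in those of the WT-labelled library, and the 5 highest cells held 85.8% and 76.9% of these UMIs. Without the cells of the highest doublet scores its log2 difference was -0.30, against 0.96 with them. AW112010, a transcript known to be induced in activated macrophages, stood at 128 and 77.0 CPM, with 36.9% and 18.0% of UMIs in 5 cells. Without the 5 highest cells its log2 difference was 0.33, within 1.5-fold, against 0.70 with them.

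Interferon and MHC class I genes were mostly higher in the knockdown-labelled library by small amounts. Of 16 measured interferon response genes 13 were higher by any amount, against 45.98% of all measured genes, with 1 at least 1.5-fold higher (Ifit3) and 1 at least 1.5-fold lower (Rsad2), and a median of 0.19 (log2) in members and -0.07 in the other Csf1r cells. Ifit3 stood at 23.6 CPM (87 UMIs) in members of the knockdown-labelled library and 9.52 CPM (24 UMIs) in those of the WT-labelled library, with 56.3% and 50% of its UMIs in 5 cells. Its log2 difference of 0.98 was 0.196 with stricter Vcam1 and Cx3cr1 minimums, within 1.5-fold. Rsad2 stood at 17.9 and 33.7 CPM. Isg15, a ubiquitin-like protein, stood at 87.7 and 58.3 CPM (1.504, 1.23 to 1.84), within 1.5-fold on the log2(CPM + 5) scale. Of 10 MHC class I pathway genes 9 were higher by any amount, with the peptide transporter gene Tap1 at 30.4 and 18.2 CPM (1.67, 1.17 to 2.40). Of 8 MHC class II genes measured, 3 were higher and 5 lower in the knockdown-labelled library, none by 1.5-fold. H2-DMa, which loads peptides, had a ratio of 1.21. H2-Eb1 stood at 607 and 888 CPM (0.683, 0.644 to 0.725), H2-Aa at 1133 and 1468 CPM (0.772, 0.738 to 0.807) and Cd74 at 1926 and 2437 CPM (0.790, 0.764 to 0.818). In the other Csf1r cells these ratios were 0.911, 0.880 and 0.947. Because MHC class II UMIs sit in about the 20% of members described above, the intervals of these sums, which treat UMIs as independent, are too narrow.

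Cebpb, the gene of the transcription factor C/EBP-beta, was lower in the knockdown-labelled library. It stood at 209 CPM (769 UMIs) in members of the knockdown-labelled library and 734 CPM (1849 UMIs) in those of the WT-labelled library, a ratio of 0.285 (0.261 to 0.310). After thinning, 6.82% of T cells of the knockdown-labelled library and 38.9% of those of the WT-labelled library also held a Cebpb UMI. T cells were read here as a gauge of free RNA, and whether they express Cebpb was not tested. In the other Csf1r cells the ratio was 0.247 (0.243 to 0.251), so the difference was as large there. Ppp1r14b, a phosphatase inhibitor, stood at 180 and 405 CPM (0.443, 0.401 to 0.489), with 0.437 in the other cells, and Ube2m, which conjugates NEDD8, at 75.8 and 173 CPM, with 0.485 in the other cells. Akirin2, a nuclear factor, and Chaserr, a noncoding RNA beside the chromatin remodeller Chd2, had ratios of 0.447 and 0.414 in members and 0.530 and 0.475 in the other cells. The heat shock gene Hspa1b stood at 389 and 794 CPM, and reads of Hspa1b and its near-identical neighbour Hspa1a may be split unevenly. Each of these genes was thus lower in the knockdown-labelled library in members and in the other Csf1r cells.

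**Figure D5:**
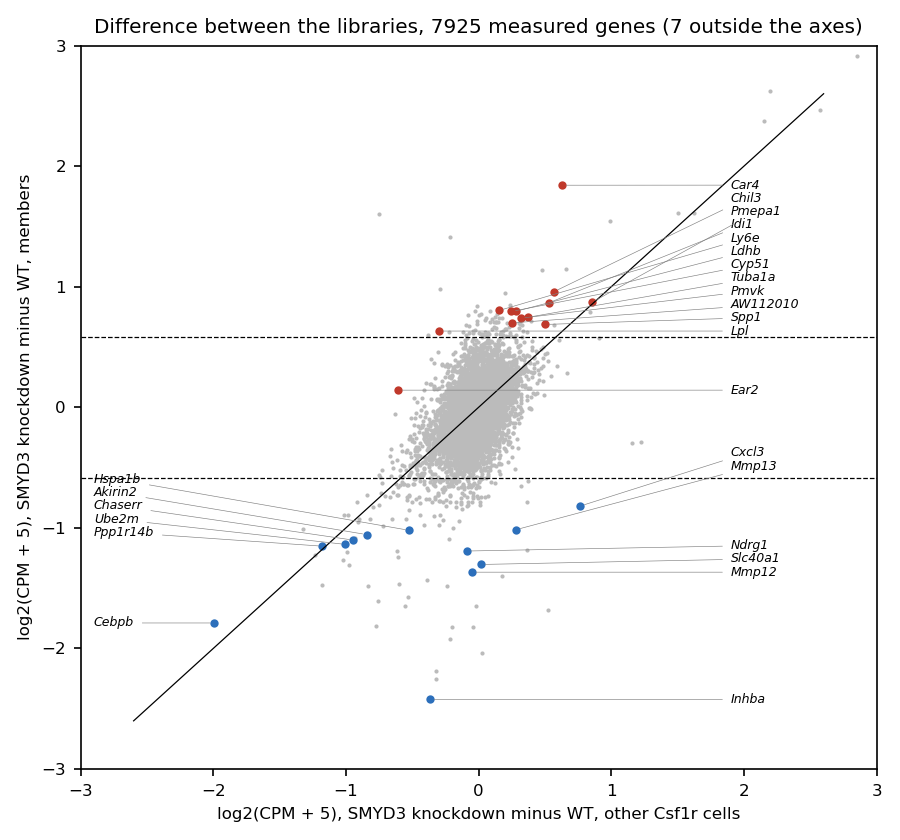
Difference in log2(CPM + 5), SMYD3 knockdown minus WT, in members (vertical) against other Csf1r cells (horizontal), for 7925 measured genes of which 7 lie outside the axes. Dashed lines mark 1.5-fold and the solid line equal differences, with named genes higher in the knockdown library in red and lower in blue. Cebpb lies near the solid line at -1.79 in members, while Mmp12, Slc40a1 and Ndrg1 lie below it near 0 for the other cells.

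A further set was lower in members of the knockdown-labelled library while the ratios in the other Csf1r cells were near or above 1; whether the ratios differ was not tested. Mmp12, macrophage elastase, stood at 132 CPM (486 UMIs) in members of the knockdown-labelled library and 348 CPM (878 UMIs) in those of the WT-labelled library, a ratio of 0.379 (0.338 to 0.424), against 0.966 in the other cells. Slc40a1, the iron exporter ferroportin, stood at 22.3 and 62.3 CPM (0.357, 0.270 to 0.470), against 1.02, and Ndrg1, a hypoxia-induced gene, at 31.2 and 77.8 CPM (0.402, 0.316 to 0.508), against 0.939. Mmp13, a collagenase, stood at 94.5 and 196 CPM (0.482, 0.419 to 0.554), against 1.23. Few cells carried these UMIs. The 5 highest members held 44.9% and 60.8% of Mmp12, 32.9% and 44.6% of Slc40a1, 39.1% and 54.1% of Ndrg1 and 28.2% and 29.6% of Mmp13. Leaving out the 5 highest cells of each gene in each library gave log2 differences of -0.87 for Mmp12, -0.9998 for Slc40a1, -0.77 for Ndrg1 and -0.98 for Mmp13. Without the members holding transcripts of other cell types, Mmp12 differed by -0.47 and Ndrg1 by -0.55, within 1.5-fold. Hmox1, heme oxygenase, in the same heme and iron list as Slc40a1, stood at 293 and 465 CPM (0.631, 0.580 to 0.686). Its ratio of summed UMIs in the other cells was 1.25. The 5 highest members held 10.9% and 28.8% of Hmox1 UMIs. After thinning, 50% and 57.5% of members held a Hmox1 UMI, against 61.7% and 64.8% of the other Csf1r cells. In the other cells the share was thus lower in the knockdown-labelled library, although the sum was higher.

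Several other genes whose difference between the libraries was farthest from that in the other Csf1r cells rested on few cells. Inhba, a subunit of activin, had 3 UMIs in members of the knockdown-labelled library and 66 in those of the WT-labelled library, and 92.4% of the UMIs of the WT-labelled library lay in 5 cells. Car4, a membrane carbonic anhydrase, had 79 and 6 UMIs, with 92.4% and 100% in 5 cells. Cxcl3, a neutrophil chemokine, had 55 and 76 UMIs, with 58.2% and 77.6% in 5 cells, and Lpl, lipoprotein lipase, had 223 and 94 UMIs, with 57.0% and 38.3% in 5 cells. Cxcl9 (91 and 12 UMIs) and Ccl5 (58 and 7 UMIs) were likewise carried by few cells, 80.2% and 93.1% of the knockdown-labelled library's UMIs lying in 5 cells. Without the 5 highest cells, Inhba differed by -0.49, Car4 by 0.41, Cxcl3 by -0.07, Lpl by 0.14 and Ccl5 by 0.29 (log2), all within 1.5-fold.

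Transcripts of other cell types were few in members as UMI counts, though not below the other Csf1r cells in every list. T cell markers summed to 55 UMIs in members of the knockdown-labelled library and 65 in those of the WT-labelled library, with Cd3e at 0 and 2, and Cd4, which macrophages can express, gave 19 and 31 of these. NK markers summed to 6 and 2 UMIs, fibroblast markers to 2 and 4 and erythroid markers to 1 and 3, with Dcn, Lum and Col1a1 at 0 in both. B cell markers summed to 53 and 71 UMIs, of which Ighm made 49 and 67, while Cd79a, Ms4a1 and Pax5 were at 0. At 14.4 and 28.2 CPM, B cell markers were above the 5.72 and 6.15 CPM of the other Csf1r cells. Dendritic cell markers summed to 63 and 42 UMIs, with Flt3 at 1 and 0. Endothelial markers summed to 30 and 115 UMIs, with Emcn at 0 and 32, and tumour epithelial markers to 47 and 145, with Krt8 at 2 and 26. As CPM, endothelial markers stood at 8.15 and 45.6 in members, against 12.2 and 10.5 in the other Csf1r cells. The T cell, NK, dendritic cell, fibroblast and tumour epithelial sums were lower in members in both libraries as CPM. In thinned members, 2 or more UMIs of the endothelial list were found in 0% and 1.04% of cells and of the tumour epithelial list in 0% and 0.518%, so the excess in the WT-labelled library sat in single cells.

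Neutrophil markers summed to 685 and 486 UMIs in members, with the defining gene Ly6g at 1 and 0 UMIs. Secretory genes of the pancreas summed to 2003 UMIs (544 CPM) in members of the knockdown-labelled library and 73 UMIs (29.0 CPM) in those of the WT-labelled library, and to 466 and 22.1 CPM in the other Csf1r cells, a trait of the whole library. Leaving out the 17 and 16 members, and the other cells, with 2 or more thinned UMIs of any such immune, tumour or stromal list gave 119 genes higher and 183 lower in the knockdown-labelled library. It gave a median of the sterol and fatty acid list of 0.59, and the difference in the share of members was then 1.86 points. The part of these transcripts in the remaining results was not tested.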

How the data were processed

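The authors deposited UMI counts per gene and cell barcode for both libraries in 1 matrix, made with Cell Ranger 7.1.0 per the file headers and mapped to mm10 per the submitters' processing notes. Tumours were dissociated with collagenase IV, papain and DNase I, with red cell lysis and dead cell removal, per the labels' protocols.

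Barcodes were mapped to libraries by the deposited table of barcodes. Counts of members and of the other Csf1r cells were summed per library and expressed as CPM of all UMIs in the sum. A gene counted as measured when 1 of the compared sums held 20 UMIs and 10 CPM or more, and folds were taken on log2(CPM + 5). Shares of members and of cells past the rule's limits are on all counts unless called thinned. For the T cell shares, the list UMIs per cell and the spread among members, each cell was thinned to 3000 UMIs. Shares have Clopper-Pearson intervals, their differences Newcombe intervals, sums Poisson intervals and ratios conditional binomial intervals. Doublet scores were computed with Scrublet in scanpy 1.11.5, whose own threshold marked no member, so the highest scores (0.8% per 1000 barcodes) were left out only as an alternative. Python 3.11.15, numpy 2.4.6, scipy 1.17.1, pandas 2.3.3 and matplotlib 3.10.9 were used, and the scripts were tested on simulated data.

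The members and the gene lists were chosen with earlier results of these data known. Named genes were the marker, fractalkine and title genes, the 10 highest and 10 lowest between libraries (with 50 CPM and 30 UMIs or more in the higher library), the 15 highest and 10 lowest against other cells (at least 50 CPM), the 5 on each side whose difference between libraries was farthest from that of the other cells, and up to 4 per list. Mitochondrial, ribosomal, unnamed, sex-linked and other cell types' genes were left out of these ranks. Some genes of the sterol list are counted in it but not reported singly here. List genes beyond these, the T cell shares and the limit of 20 UMIs were chosen after values were seen. Gene positions are from GENCODE vM21, which held 94.1% of the 55357 gene identifiers, and promoter windows from RefSeq on GRCm38.p6.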

Additional observations from a re-analysis of the deposited data

Results flagged for a closer look

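In members, Mmp13, Cxcl3 and Lpl differed between the libraries in the direction opposite to that in the other Csf1r cells. Whether these differences differ beyond the spread between tumours was not tested, since there is 1 library per label. Mmp13, a collagenase, had a ratio of the knockdown-labelled over the WT-labelled library of 0.482 (0.419 to 0.554) in members and 1.23 (1.19 to 1.28) in the other cells. Cxcl3, a neutrophil chemokine, had a ratio of 0.495 (0.344 to 0.710) in members and 1.74 (1.69 to 1.80) in the other cells, and 5 cells held 58.2% of its UMIs in members of the knockdown-labelled library and 77.6% in those of the WT-labelled library. Lpl, lipoprotein lipase, had a ratio of 1.62 (1.27 to 2.09) in members and 0.811 (0.795 to 0.827) in the other cells, and 5 cells held 57.0% and 38.3% of its UMIs. Without the 5 highest cells of each gene, the log2 differences in members were -0.98 for Mmp13, -0.07 for Cxcl3 and 0.14 for Lpl.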

How the results depend on the processing

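The higher share of members in the knockdown-labelled library held under all 11 alternatives, with differences between 0.937 and 1.86 points. The 102 genes higher and 201 lower between libraries depended on the low-value filter, the pseudocount and the members taken. The count of higher genes was 178 with stricter Vcam1 and Cx3cr1 minimums, 251 with the rule on thinned counts, 277 with sums of thinned cells, 175 with a pseudocount of 1, 24 with at least 100 UMIs and 50 CPM, 180 with no filter beyond 1 UMI and 171 without the 5 highest cells of each gene. The count of lower genes was 128 with looser minimums, 326 with the rule on thinned counts, 327 with a pseudocount of 1, 57 with at least 100 UMIs and 50 CPM and 355 with no filter beyond 1 UMI. Against the other cells, at least 100 UMIs and 50 CPM left 134 higher and 223 lower, in place of 238 and 524. Counting only genes whose main interval or fold set them apart, and list medians of at least 0.1 both ways, directions turned for Cx3cr1 (-0.049 with stricter minimums), Chil3 (-0.30 without high doublet scores) and Sparc, which was -2.19 and became 0.043 without cells holding other types' transcripts and 0.071 without the 5 highest cells. The neutrophil list median between libraries was -0.15 and became 0.16 without high doublet scores, 0.17 without cells holding other types' transcripts and 0.16 without the 5 highest cells. Its median against other cells in the WT-labelled library was -0.23 and became 0.22 with sums of thinned cells. The growth factor list against other cells in the knockdown-labelled library was -0.13 and became 0.11 without cells holding other types' transcripts, 0.28 with at least 100 UMIs and 50 CPM and 0.14 with no filter beyond 1 UMI. Values nearer 0 also changed sign, among them Srebf1 (0.37, and -0.0071 with stricter minimums), Fcrls, Cd47, Sirpa and the matrix list (-0.048, and 0.28 with stricter minimums). Of the genes named as highest, these came within 1.5-fold: Pmepa1 at 0.39 and Tuba1a at 0.41 with sums of thinned cells, and Spp1 at 0.33, AW112010 at 0.27, Ldhb at 0.53 and Pmvk at 0.55 with stricter minimums. Beyond what their construction shows, the cause was not tested. The sterol and fatty acid list median, 0.51, ran between 0.36 and 0.64. Leaving out cells with other types' transcripts or the 5 highest cells was chosen after seeing the data. No paired analysis was possible because each label has 1 library, and no replicate could be left out. Counting error is widest for genes with few UMIs in 266 and 193 cells.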
